A study of Mus musculus with 28 samples.

Results

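The 10 genes described here are coagulation proteases and cofactors made by liver (F2, F5, F7, F9 and F10), the anticoagulant protease gene Proc, the fibrinolytic gene Plg, and the serpin genes Serpinc1, Serpind1 and Serpina10. All probe sets that the array annotation gives to these symbols were taken, which gave 14 of 12422 probe sets and 10 of 8251 genes on the array. F7, F10, Proc and Plg had 2 probe sets each, and the brighter one stands for the gene unless the other is named. All 10 genes passed the filter on brightness, and each was above the array median on 28 of 28 arrays.

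The study asked how loss of Aag, a glycosylase that removes alkylated bases from DNA and is encoded by Mpg, alters liver gene expression after methyl methanesulfonate (MMS), an agent that methylates DNA. Total RNA from mouse liver was measured on 28 Affymetrix MG-U74Av2 arrays. Livers of Aag null mice, named Aag below, were taken 6 h (3 arrays), 12 h (2), 24 h (4) and 48 h (3) after MMS, beside 4 untreated arrays. Livers of wild-type (WT) mice were taken 6 h (2 arrays), 12 h (3), 24 h (2) and 48 h (2) after MMS, beside 3 untreated arrays. The labels give no strain, sex or age of the mice and no dose or route of MMS. No label describes a vehicle, so the untreated arrays are not known to match the treated ones in handling or hour of the day. Whether replicates come from separate animals is not stated, so p-values measure only the spread between these samples, which may be technical. Values are log2 signals, and the number of arrays limits their precision. Errors marked SE come from limma, and a gene is called changed at an adjusted p under 0.05, with the adjustment made over all 5487 tested genes.

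Clotting in plasma runs through a chain of serine protease zymogens made in hepatocytes. Factor VII starts it with tissue factor, factors IX and X follow with their cofactors, and thrombin, cut from prothrombin, turns fibrinogen into fibrin. Antithrombin, heparin cofactor II and the protein Z-dependent protease inhibitor are serpins that trap these proteases, and activated protein C cuts the cofactors. Plasmin, cut from plasminogen, dissolves fibrin. Several of these liver genes are known to be driven by hepatocyte nuclear factors and C/EBP factors, and some plasma proteins of liver change in inflammation as acute phase proteins.

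The genes of factor VII (F7) and factor X (F10) are next to each other on chromosome 8 in the RefSeq annotation. The signals of their brighter probe sets moved in opposite directions in WT liver after MMS, so the 250 bases before each start are shown. The other F7 probe set averaged 6.81 in untreated WT liver and 6.80 at 6 h. Neither gene stayed called in WT liver with the array set, described below, as a term. They were taken from RefSeq windows of build GRCm38.p6, which held 7 of the 10 genes. The window of F7 lies at chr8:13025784-13026033 and that of F10 at chr8:13037058-13037307, both on the plus strand. F9 (chrX:59999214-59999463, plus strand) is shown as the window with motif matches, in capitals. The sequences run 5′ to 3′.
F7: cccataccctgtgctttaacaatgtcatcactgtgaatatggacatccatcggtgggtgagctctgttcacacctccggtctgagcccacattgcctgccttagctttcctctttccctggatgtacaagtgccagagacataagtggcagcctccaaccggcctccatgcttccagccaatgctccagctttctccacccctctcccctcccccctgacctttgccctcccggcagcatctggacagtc
F10: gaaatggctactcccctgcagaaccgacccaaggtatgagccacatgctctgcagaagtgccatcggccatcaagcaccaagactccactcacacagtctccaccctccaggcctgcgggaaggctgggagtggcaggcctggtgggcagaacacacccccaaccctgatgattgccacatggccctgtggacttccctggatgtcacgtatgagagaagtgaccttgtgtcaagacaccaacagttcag
F9: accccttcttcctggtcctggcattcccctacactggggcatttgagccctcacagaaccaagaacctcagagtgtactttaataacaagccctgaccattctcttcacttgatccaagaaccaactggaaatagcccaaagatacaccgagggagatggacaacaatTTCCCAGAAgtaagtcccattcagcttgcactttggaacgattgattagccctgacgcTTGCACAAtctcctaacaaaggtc
The motifs searched on both strands were GTTAAT for HNF1, CAAAGTC for HNF4, TTGCNNAA for C/EBP and TTCNNNGAA for STAT. Among all 32851 windows of 250 bases, 6.43% held the HNF1 letters, 3.84% the HNF4 letters, 9.56% the C/EBP letters and 7.02% the STAT letters. The F9 window held the C/EBP letters at -24 to -17 and the STAT letters at -82 to -74, counted from the start. The other 6 windows of these genes held none of the 4 strings of letters searched, which says only that these letters are not in them. Other forms of these motifs were not searched for.

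Serpina10, the gene of the protein Z-dependent protease inhibitor, which inhibits activated factor X in the presence of protein Z, rose after MMS in WT liver at 6 and 12 h, and its Aag responses did not pass the test at any time. In Aag liver its signals were 7.53, 7.93 and 7.55 at 6 h and 7.70 and 7.67 at 12 h, against 7.60, 7.77, 7.82 and 7.70 untreated. In WT liver they were 8.83 and 8.69 at 6 h and 8.57, 8.67 and 8.44 at 12 h, against 7.49, 7.29 and 7.58 untreated. The 5 WT arrays at 6 and 12 h lay at 8.44 to 8.83, and the other 23 arrays of the series lay at 7.29 to 7.93, with no overlap. The gap between these ranges was 0.51, and it was 0.26 with the values as deposited and 0.13 with median centring.

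In WT liver the log2 difference from untreated was 1.30 (SE 0.14, 2.47-fold, limma adjusted p = 9.28e-06) at 6 h and 1.10 (SE 0.13, 2.15-fold, limma adjusted p = 5.74e-06) at 12 h. Later WT arrays stood near the untreated ones, with 7.57 and 7.75 at 24 h and 7.29 and 7.49 at 48 h. The WT difference was 0.20 (limma adjusted p = 0.364) at 24 h and -0.07 (limma adjusted p = 0.795) at 48 h. Between WT arrays at 48 h and at 6 h Serpina10 fell by 1.37 (SE 0.15, limma adjusted p = 3.84e-05), the smallest p of the 5487 genes in that comparison. That call was lost with array weights (limma adjusted p = 0.876) and in a fit of only the arrays compared (limma adjusted p = 0.957). In Aag liver the differences from untreated were -0.05 at 6 h (95% interval -0.30 to 0.19), -0.04 at 12 h (-0.31 to 0.24), -0.12 at 24 h and -0.15 at 48 h. At 6 and 12 h these intervals did not reach the WT differences of the same times.

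**Figure D1:**
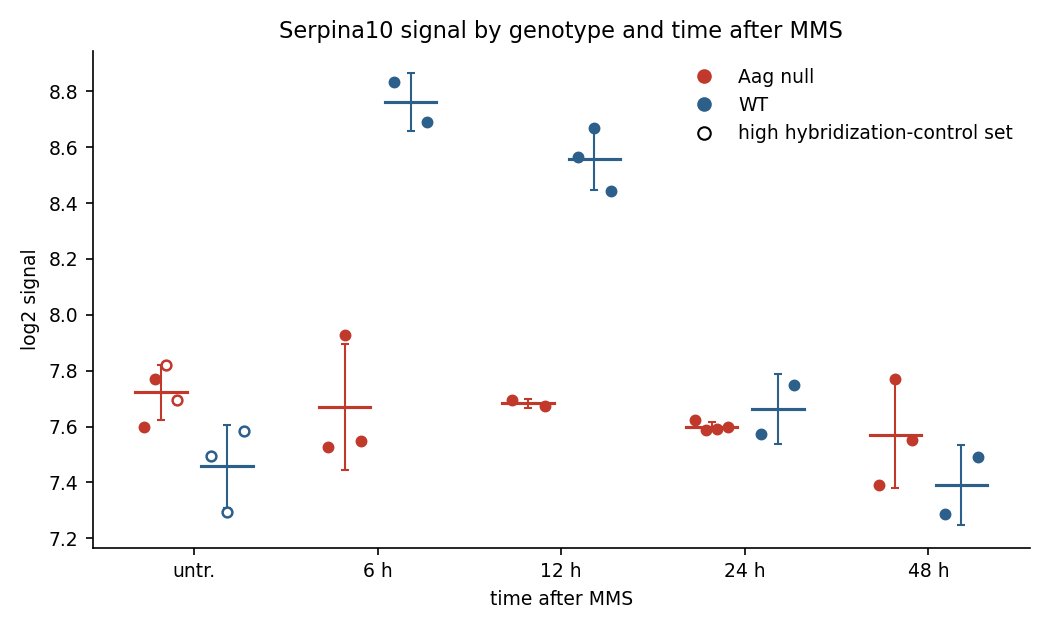
Serpina10 log2 signal (vertical axis) in untreated liver and at each time after MMS (horizontal axis), with Aag arrays in red left of WT arrays in blue. Points are arrays, bars are means with SD, and open points are arrays with high hybridization controls. The WT arrays at 6 and 12 h lie at 8.44 to 8.83, above the 23 others.

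The genotypes were then compared directly at matched times after MMS, where all arrays belong to the set with low hybridization controls described below. Within that set the 6 h arrays were not uniform. Their controls averaged 6.59 on Aag replicate 1 and 6.42 on WT replicate 1, against 8.47 to 9.22 on the other 6 h arrays. Serpina10 was lower in Aag than in WT liver at 6 h, by a log2 difference of -1.09 (SE 0.14, limma adjusted p = 0.000374), with 2.13-fold more signal in WT. It was again lower at 12 h, by -0.88 (SE 0.14, limma adjusted p = 0.0132), with 1.84-fold more in WT. It had the smallest p of the 5487 genes at both times, and at 12 h it was the only gene called. At 24 h the difference was -0.06 (limma adjusted p = 0.999) and at 48 h 0.18 (limma adjusted p = 0.998). In untreated liver Serpina10 averaged 7.72 ± 0.10 (SD, n = 4) in Aag and 7.46 ± 0.15 (SD, n = 3) in WT, a difference of 0.26 that missed the threshold (limma adjusted p = 0.205).

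The responses of the genotypes, which rest on the same untreated arrays as above, were set against each other as an interaction. For Serpina10 the Aag response minus the WT response was -1.36 (SE 0.18, limma adjusted p = 0.000908) at 6 h and -1.14 (SE 0.18, limma adjusted p = 0.0135) at 12 h, the smallest p of all genes at both times. It was -0.33 (limma adjusted p = 0.546) at 24 h and -0.08 (limma adjusted p = 0.886) at 48 h. The 12 h calls rest on few arrays. The Aag against WT difference at 12 h kept its size, at -0.82 to -0.89, but not its call when WT 12 h replicate 1 or 2 or Aag 12 h replicate 1 or 2 was left out (limma adjusted p = 0.0887, 0.161, 0.436 and 0.593), or with the values as deposited (-0.76, limma adjusted p = 0.751) or median centred (-0.74, limma adjusted p = 0.999). The 6 h difference of the genotypes lost its call as deposited (-0.94, limma adjusted p = 0.0855) and median centred (-0.92, limma adjusted p = 0.165), and kept it without any single array. The interaction at 12 h lost its call without WT 12 h replicate 2 (-1.09, limma adjusted p = 0.0647) or Aag 12 h replicate 1 (-1.15, limma adjusted p = 0.105) or 2 (-1.13, limma adjusted p = 0.199), and also as deposited (-1.09, limma adjusted p = 0.176), median centred (-1.04, limma adjusted p = 0.251) and without the 3 female-typical arrays named below (-1.11, limma adjusted p = 0.0511). The interaction at 6 h lost its call with median centring (-1.23, limma adjusted p = 0.0945). Fitted on the arrays compared alone, the 6 h calls of Serpina10 were all lost, namely Aag minus WT (-1.09, limma adjusted p = 1), the WT difference (1.30, limma adjusted p = 0.092) and the interaction (-1.36, limma adjusted p = 0.167). With array weights, whose fit did not converge, they were lost as well (-1.05, 1.29 and -1.31, limma adjusted p = 1, 0.403 and 1).

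Ordered by mean, Serpina10 stood highest in WT liver at 6 h (8.76 ± 0.10, SD, n = 2), then in WT at 12 h (8.56 ± 0.11, SD, n = 3). The arrays of these neighbours did not overlap, nor did those of WT at 12 h and of untreated Aag liver, the next group. From there down to WT at 48 h (7.39 ± 0.14, SD, n = 2) each group overlapped the next.

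The genes whose pattern over the 28 arrays was most like that of Serpina10, chosen after its values were seen, were Itih4, Serpina3n, Lbp, Lrg1 and Flot1, with Pearson correlations of 0.90, 0.89, 0.84, 0.80 and 0.78. These arrays share group means and scaling, so the correlations are descriptions. Itih4, of the inter-alpha inhibitor family, was lower in Aag than in WT liver at 6 h (-1.44, SE 0.20, limma adjusted p = 0.000688), and its difference at 12 h was -1.10 (limma adjusted p = 0.0533). The serpin gene Serpina3n, an acute phase gene, differed by -1.24 at 6 h (limma adjusted p = 0.0562) and by -1.12 at 12 h (limma adjusted p = 0.427). Its Aag response at 6 h was 0.74 (limma adjusted p = 0.124), where that of Serpina10 was -0.05.

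Hepatocyte markers were present in every group, and 9 of the 10 listed were on the array and tested. Their summed log2 level was 14.29 to 14.44 in Aag and 14.16 to 14.22 in WT liver at 6 h, and 14.26 to 14.35 in Aag and 14.14 to 14.23 in WT liver at 12 h. The summed level of 8 Kupffer cell and macrophage markers, 7 of them tested, was 8.45 to 8.76 in Aag and 7.99 to 8.18 in WT liver at 6 h, and 8.53 to 8.57 in Aag and 7.70 to 8.17 in WT liver at 12 h. Of the hepatocyte markers limma called 0 between the genotypes at 6 and 12 h (2 and 1 at unadjusted p under 0.05). Of the Kupffer cell markers it also called 0 (3 and 5 at unadjusted p under 0.05). Of all genes tested, 268 and 70 had an unadjusted p under 0.05 at these times, and 10 and 1 were called. The median Aag minus WT difference was 0.35 and 0.64 for the 7 Kupffer cell markers, and 0.21 and 0.16 for the 9 hepatocyte markers. With so few genes called, 0 called does not show that marker levels were equal. The part of these markers in the Serpina10 difference was not tested. In this bulk tissue fewer cells of a type and less RNA per cell cannot be told apart.

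The array sets bear on every other call of these genes. Hybridization controls, transcripts added to each sample, averaged 10.25 to 11.65 on 5 arrays (replicates 3 and 4 of untreated Aag liver and all 3 of untreated WT liver), and 6.42 to 9.22 on the other 23. All WT untreated arrays are in the high set and all treated arrays in the low one, so in WT liver the array set and MMS cannot be told apart except through the Aag untreated arrays. The difference between 3′ and 5′ Gapdh control probe sets was 0.63 to 0.92 in the high set, -0.19 to 0.02 on the low untreated arrays and -0.37 to 0.21 on treated arrays. With the array set as a term, estimated from the 4 Aag untreated arrays alone, Serpina10 kept its WT calls, with 1.38 (limma adjusted p = 0.000794) at 6 h and 1.17 (limma adjusted p = 0.000989) at 12 h, and no other of the 10 genes stayed called in WT liver at any time. Female-typical Cyp2b9 and Hsd3b5 signals were seen on 3 Aag arrays, namely replicate 3 of untreated liver and replicates 1 and 2 of the 24 h group. Eif2s3y, a gene of the Y chromosome, read 2.50 to 2.53 on these arrays and 3.39 to 5.61 on all others. Replicate 3 of untreated Aag liver is also among the 4 arrays behind the array-set term. Mpg was dim in both genotypes, at 2.23 to 2.58 on Aag and 2.48 to 2.85 on WT arrays, and does not separate them.

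In WT liver at 6 h, 2 of the 10 genes were higher and 4 lower than untreated, where 16.3% of all genes tested were called, 7.05% higher and 9.22% lower. At 12 h, 2 were higher and 2 lower, where 21% of all genes were called, 10.9% higher and 10.2% lower. At 24 h, 0 were higher and 1 lower (13.8% of all genes called, 6.63% higher and 7.2% lower). At 48 h, 1 was higher and 3 lower (14.4% of all genes called, 6.32% higher and 8.11% lower). The median difference of the 10 genes was, in order of time, -0.37, -0.26, -0.14 and -0.12, beside 0.02, 0.04, 0.04 and 0.03 over all genes. In Aag liver limma called 0 of the 10 genes at each time (0.51%, 0.437%, 1.08% and 0.911% of all genes at 6, 12, 24 and 48 h), and 3, 2, 1 and 3 of them had an unadjusted p under 0.05. Their median differences in Aag liver were -0.15, -0.13, -0.11 and -0.06. Cell type markers were also called in WT liver against untreated, and their part in these differences was not tested. Of 7 Kupffer cell and macrophage markers, 1 was higher and 1 lower at 6 h, 3 were lower at 12 h, and limma called 0 at 24 and 48 h (1 and 2 at unadjusted p under 0.05), with medians of -0.37, -0.54, -0.38 and 0.00. Of 5 stellate cell markers 2 were lower at each time, and 1 was higher at 12 and 48 h. Of 4 endothelial and of 3 red cell markers 1 each was lower at each time, and of 3 lymphocyte markers 1 was lower at 12 h. Of 9 hepatocyte markers 1, 2, 1 and 1 were lower in order of time, and 1 was higher at 6 and at 48 h. In Aag liver limma called 0 of these markers other than those of hepatocytes, with 0, 0, 4 and 3 Kupffer cell and macrophage markers at unadjusted p under 0.05 in order of time and at most 2 of each other list at any time. Of the hepatocyte markers there, 1 was higher at 12, 24 and 48 h and 1 lower at 24 h.

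Between the genotypes limma called 1 of the 10 genes at 6 h (0.182% of all genes) and 1 at 12 h (0.0182%), in each case Serpina10, and 0 at 24 and 48 h, where no gene at all was called (0%) and 68 and 194 of all genes had an unadjusted p under 0.05. It called 0 of the 10 in untreated liver (4.5% of all genes), where 1 of the 10 and 1078 of all genes had an unadjusted p under 0.05. As an interaction limma called 1 of the 10, Serpina10, at 6 h (0.237%) and at 12 h (0.164%), and 0 at 24 h (0.0364%) and 48 h (0.2%). At 24 and 48 h, 0 of the 10 had an unadjusted p under 0.05, beside 558 and 716 of all genes. From 6 to 48 h limma called 0 of the 10 in Aag liver (0.2% of all genes) and 1, Serpina10, in WT liver (0.747%). In Aag liver 2 of the 10 and 569 of all genes had an unadjusted p under 0.05 there.

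**Figure D2:**
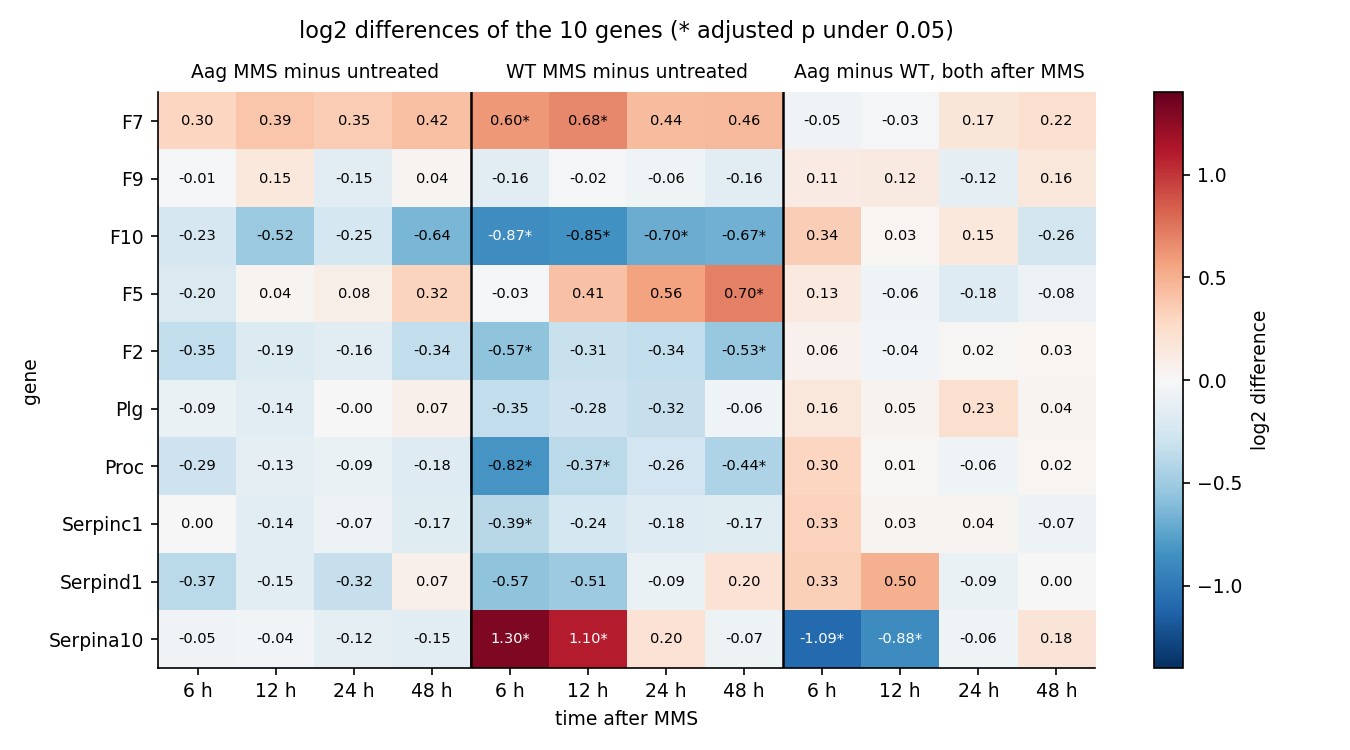
log2 differences of the 10 genes (rows) for Aag after MMS minus untreated, WT after MMS minus untreated, and Aag minus WT after MMS, each at 4 times (columns). Colour runs with the printed difference, and stars mark an adjusted p under 0.05. Stars stand in the WT columns, with 6 at 6 h, and in the genotype columns only for Serpina10.

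Factor VII (F7) binds tissue factor and starts the cascade. Its brighter probe set read 8.39, 8.63 and 8.53 in Aag liver at 6 h and 8.53 and 8.68 at 12 h, against 8.57, 8.15, 8.12 and 8.01 in untreated Aag liver. In WT liver it read 8.29 and 8.83 at 6 h and 8.62, 8.71 and 8.57 at 12 h, against 7.73, 7.88 and 8.26 untreated. The WT arrays of 6 and 12 h all lay above the untreated ones, while the Aag ranges overlapped. F7 rose in WT liver by 0.60 (SE 0.18, limma adjusted p = 0.0236) at 6 h and by 0.68 (SE 0.16, limma adjusted p = 0.00444) at 12 h. The other probe set of F7 did not show this, with -0.01 (limma adjusted p = 0.978) at 6 h and 0.20 (limma adjusted p = 0.487) at 12 h. The mean of both gave 0.30 (limma adjusted p = 0.234) at 6 h. The 6 h call of F7 was also lost without WT untreated replicate 1 (0.49, limma adjusted p = 0.0949) or 2 (0.57, limma adjusted p = 0.0573). The Aag responses of F7 were 0.30, 0.39, 0.35 and 0.42 in order of time, with limma adjusted p between 0.154 and 0.37.

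Factor X (F10), the protease that cuts prothrombin, showed the lowest WT differences of the 10 genes. Its signals were 7.64, 7.17 and 7.12 in Aag liver at 6 h and 7.11 and 6.93 at 12 h, against 7.21, 7.47, 7.67 and 7.81 in untreated Aag liver. In WT liver they were 7.50 and 6.43 at 6 h and 6.97, 7.08 and 6.93 at 12 h, against 7.72, 7.79 and 8.0 untreated. After quantile normalization all WT arrays after MMS lay below the WT untreated arrays. As deposited, WT 6 h replicate 1 read 7.75, above WT untreated replicate 2 at 7.72. F10 fell in WT liver by 0.87 (SE 0.22, limma adjusted p = 0.00994) at 6 h, by 0.85 (SE 0.20, limma adjusted p = 0.00427) at 12 h, by 0.70 (limma adjusted p = 0.0377) at 24 h and by 0.67 (limma adjusted p = 0.0442) at 48 h. The 24 h call of F10 was lost without any of the 5 arrays of WT 24 h and untreated liver (-0.75 to -0.62), and likewise that at 48 h (-0.87 to -0.47). Its dimmer probe set had the same sign at each time and was not called, with -0.60 (limma adjusted p = 0.0547) at 12 h. The Aag differences were -0.23, -0.52, -0.25 and -0.64, with limma adjusted p = 0.0892 at 48 h, the lowest of the 4 times.

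F10 and F7 also differed between the array sets within untreated Aag liver, with 2 arrays in each set. Replicate 3, of the high set, is female-typical, so that trait and the array set are partly mixed there. F10 read 7.67 and 7.81 on the high Aag arrays and 7.21 and 7.47 on the low ones, where the WT untreated arrays, all high, read 7.72 to 8.0. The dimmer F10 probe set read 5.75 and 5.98 on the high Aag arrays, 4.74 and 4.89 on the low Aag arrays and 5.16 to 5.71 on the WT untreated arrays. F7 read 8.12 and 8.01 on the high Aag arrays and 8.57 and 8.15 on the low ones. When the array set was a term, the WT differences were -0.48 at 6 h (limma adjusted p = 0.495) and -0.45 at 12 h (limma adjusted p = 0.51) for F10, and 0.31 (limma adjusted p = 0.596) and 0.39 (limma adjusted p = 0.474) for F7. Over the 28 arrays the signals of F7 and F10 correlated at -0.79, and over the treated arrays alone, which are all of the low set, at -0.61. These are descriptions across arrays that share groups.

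**Figure D3:**
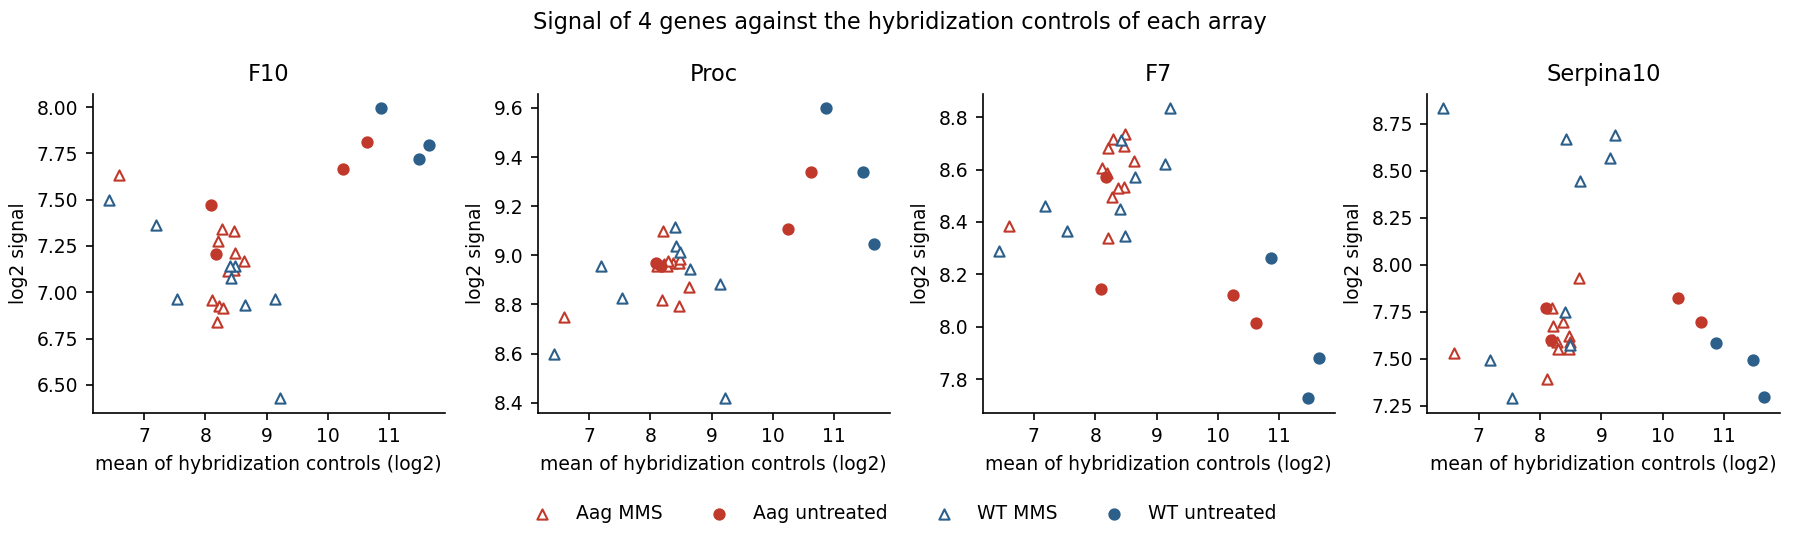
log2 signals of F10, Proc, F7 and Serpina10 (vertical axes) against the mean of the hybridization controls of each array (horizontal axis, log2), with Aag in red, WT in blue, triangles for MMS and filled circles for untreated liver. The 5 arrays with controls of 10.25 or more hold the highest F10 signals, from 7.67 up, and the arrays overlap for Proc and F7, while the 5 high Serpina10 arrays, at 8.44 to 8.83, have controls in the low set.

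Protein C (Proc), the zymogen of the protease that cuts activated factors V and VIII, read 8.75, 8.87 and 8.80 in Aag liver at 6 h, against 8.96, 8.97, 9.11 and 9.34 in untreated Aag liver. In WT liver it read 8.60 and 8.42 at 6 h, against 9.34, 9.04 and 9.60 untreated. After quantile normalization neither genotype's arrays at 6 h overlapped its untreated arrays, and the WT arrays lay below the Aag ones. As deposited, Aag 6 h replicate 1 read 9.04, above untreated Aag replicates 1 and 2 at 8.91 and 8.94. WT 6 h replicate 1, at 8.85 as deposited, lay above Aag 6 h replicates 2 and 3, at 8.80 and 8.74. Proc fell in WT liver by 0.82 (SE 0.14, limma adjusted p = 0.00049) at 6 h, by 0.37 (limma adjusted p = 0.035) at 12 h and by 0.44 (limma adjusted p = 0.0377) at 48 h, and its 24 h difference was -0.26 (limma adjusted p = 0.217). The 12 h call of Proc was lost without WT untreated replicate 1 or 3 or any of the 3 WT arrays at 12 h (-0.41 to -0.24), and that at 48 h without WT untreated replicate 1 or 3 or either WT array at 48 h (-0.50 to -0.30). The dimmer probe set of Proc gave -0.53 (limma adjusted p = 0.124) at 6 h and was called at 12 h (-0.67, limma adjusted p = 0.0256) and 24 h (-0.72, limma adjusted p = 0.041). Without MMS, this dimmer probe set read 5.80 and 5.99 on the high-set Aag arrays and 5.13 and 5.32 on the low-set ones. The WT untreated arrays, all of the high set, read 5.51 to 6.31. For the brighter probe set, the Aag difference at 6 h was -0.29 (SE 0.12, limma adjusted p = 0.261). Aag minus WT at 6 h was 0.30 (limma adjusted p = 0.948), and the interaction of 0.53 did not pass (limma adjusted p = 0.258). When the array set was a term, the WT difference of Proc at 6 h was -0.56 (limma adjusted p = 0.149).

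Prothrombin (F2), the zymogen of thrombin, read 9.11, 9.07 and 8.73 in Aag liver at 6 h, against 9.07, 9.36, 9.53 and 9.33 in untreated Aag liver. In WT liver it read 9.25 and 8.57 at 6 h and 8.99 and 8.92 at 48 h, against 9.66, 9.39 and 9.39 untreated. F2 fell in WT liver by 0.57 (SE 0.17, limma adjusted p = 0.0278) at 6 h and by 0.53 (SE 0.17, limma adjusted p = 0.0439) at 48 h, with -0.31 and -0.34 at 12 and 24 h. The Aag differences were -0.35, -0.19, -0.16 and -0.34, with limma adjusted p between 0.236 and 0.712. The 48 h call of F2 was lost without WT untreated replicate 1 (-0.44) or 2 (-0.57) or WT 48 h replicate 1 (-0.56) or 2 (-0.49), and the 6 h call without WT untreated replicate 1 (-0.48, limma adjusted p = 0.0985). Without WT 6 h replicate 2 the 6 h value of F2 was -0.22 (limma adjusted p = 0.375), that of F10 was -0.34 (limma adjusted p = 0.232), and that of F7 was 0.33 (limma adjusted p = 0.229).

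Factor V (F5), the cofactor of factor X, read 7.62, 7.50 and 7.40 in Aag liver at 48 h, against 7.20, 7.31, 7.11 and 7.15 in untreated Aag liver. In WT liver it read 7.32 and 7.85 at 48 h, against 7.03, 6.71 and 6.92 untreated. In both genotypes the arrays at 48 h lay above the untreated ones. F5 rose in WT liver at 48 h by 0.70 (SE 0.23, limma adjusted p = 0.0431), and the Aag difference was 0.32 (SE 0.19, limma adjusted p = 0.41). The WT call rested on replicate 2, without which the difference was 0.43 (limma adjusted p = 0.416). It was also lost when WT untreated replicate 1, 2 or 3 was left out (limma adjusted p = 0.0518, 0.115 and 0.0636).

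Antithrombin (Serpinc1), the serpin that inhibits thrombin and factor X, read 10.01, 10.12 and 10.23 in Aag liver and 9.91 and 9.68 in WT liver at 6 h. Untreated liver read 10.16, 10.16, 10.04 and 10.11 in Aag and 9.98, 10.20 and 10.36 in WT. Serpinc1 fell in WT liver at 6 h by 0.39 (SE 0.12, limma adjusted p = 0.0262), and the Aag difference was 0.00 (95% interval -0.20 to 0.20). Aag minus WT at 6 h was 0.33 (SE 0.12, limma adjusted p = 0.662) and the interaction 0.39 (limma adjusted p = 0.346). The WT call was lost without WT 6 h replicate 2 (-0.27, limma adjusted p = 0.162), without WT untreated replicate 2 (-0.38, limma adjusted p = 0.0527) or without WT untreated replicate 3 (-0.30, limma adjusted p = 0.0906).

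Heparin cofactor II (Serpind1), a serpin that inhibits thrombin, was not called in any comparison. Its 12 h arrays were tight, with 8.80 and 8.74 in Aag liver and 8.28, 8.27 and 8.26 in WT liver, and did not overlap. The difference of 0.50 (SE 0.21, unadjusted p = 0.0293) came out at a limma adjusted p of 0.999. Against untreated liver the 12 h differences were -0.15 (limma adjusted p = 0.843) in Aag and -0.51 (limma adjusted p = 0.0594) in WT liver, with an interaction of 0.36 (limma adjusted p = 0.856). A fit with only the WT 12 h and untreated arrays called the WT value (limma adjusted p = 0.0121).

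Serpind1, F5, F10 and F2 were split between the WT arrays at 6 h. Replicates 1 and 2 read 8.73 and 7.70 for Serpind1, 7.37 and 6.34 for F5, 7.50 and 6.43 for F10, and 9.25 and 8.57 for F2. Across all genes the correlation of WT 6 h replicate 1 was 0.984 with replicate 1 of the Aag 6 h group and 0.837 with the other WT array at 6 h. Aag 6 h replicate 1 was also the highest of its group, with 8.90 beside 8.17 and 8.57 for Serpind1 and 7.45 beside 6.69 and 6.83 for F5. Without both 6 h replicate 1 arrays, which leaves 1 WT array at 6 h whose spread is taken from the other groups, the WT differences were -1.09 for Serpind1 (limma adjusted p = 0.000312) and -0.54 for F5 (limma adjusted p = 0.0303), and the Aag difference of Serpind1 was -0.55 (limma adjusted p = 0.0436). In that fit Serpina10 still differed between the genotypes at 6 h (-0.95, limma adjusted p = 0.014). Without WT 6 h replicate 1 alone, Aag minus WT at 6 h was 0.85 for Serpind1 and 0.88 for F10 (limma adjusted p = 0.0174 for both) and 0.44 for Serpinc1 (limma adjusted p = 0.0451).

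Plasminogen (Plg) and factor IX (F9) gave no call in any comparison. Plg, at 10.88 to 11.40 over the arrays, differed by -0.35 (limma adjusted p = 0.0585) at 6 h, -0.28 (limma adjusted p = 0.072) at 12 h and -0.32 (limma adjusted p = 0.0869) at 24 h in WT liver, and by -0.09, -0.14 and 0.00 in Aag liver. Its other probe set gave -0.17, 0.08 and -0.02 in WT liver at these times. For the brighter probe set, quantile normalization gave all 3 untreated WT arrays 11.26. As deposited they read 11.16, 11.01 and 11.16. The WT arrays at 12 h (11.11, 11.08 and 11.08) and 24 h (11.12 and 11.14) lay in that range. Those at 6 h read 11.22 and 10.61. The WT falls at 12 and 24 h were thus not seen as deposited. Untreated Aag arrays as deposited read 11.12 to 11.41. Below these lay Aag replicates 2 and 3 at 6 h, 1 at 12 h, and 3 and 4 at 24 h. F9, which with its cofactor activates factor X, had the narrowest spread of group means among the 10 genes, 0.29, between 7.74 in Aag liver at 12 h and 7.45 in Aag liver at 24 h. Its differences from untreated were -0.01, 0.15, -0.15 and 0.04 in Aag and -0.16, -0.02, -0.06 and -0.16 in WT liver.

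**Figure D4:**
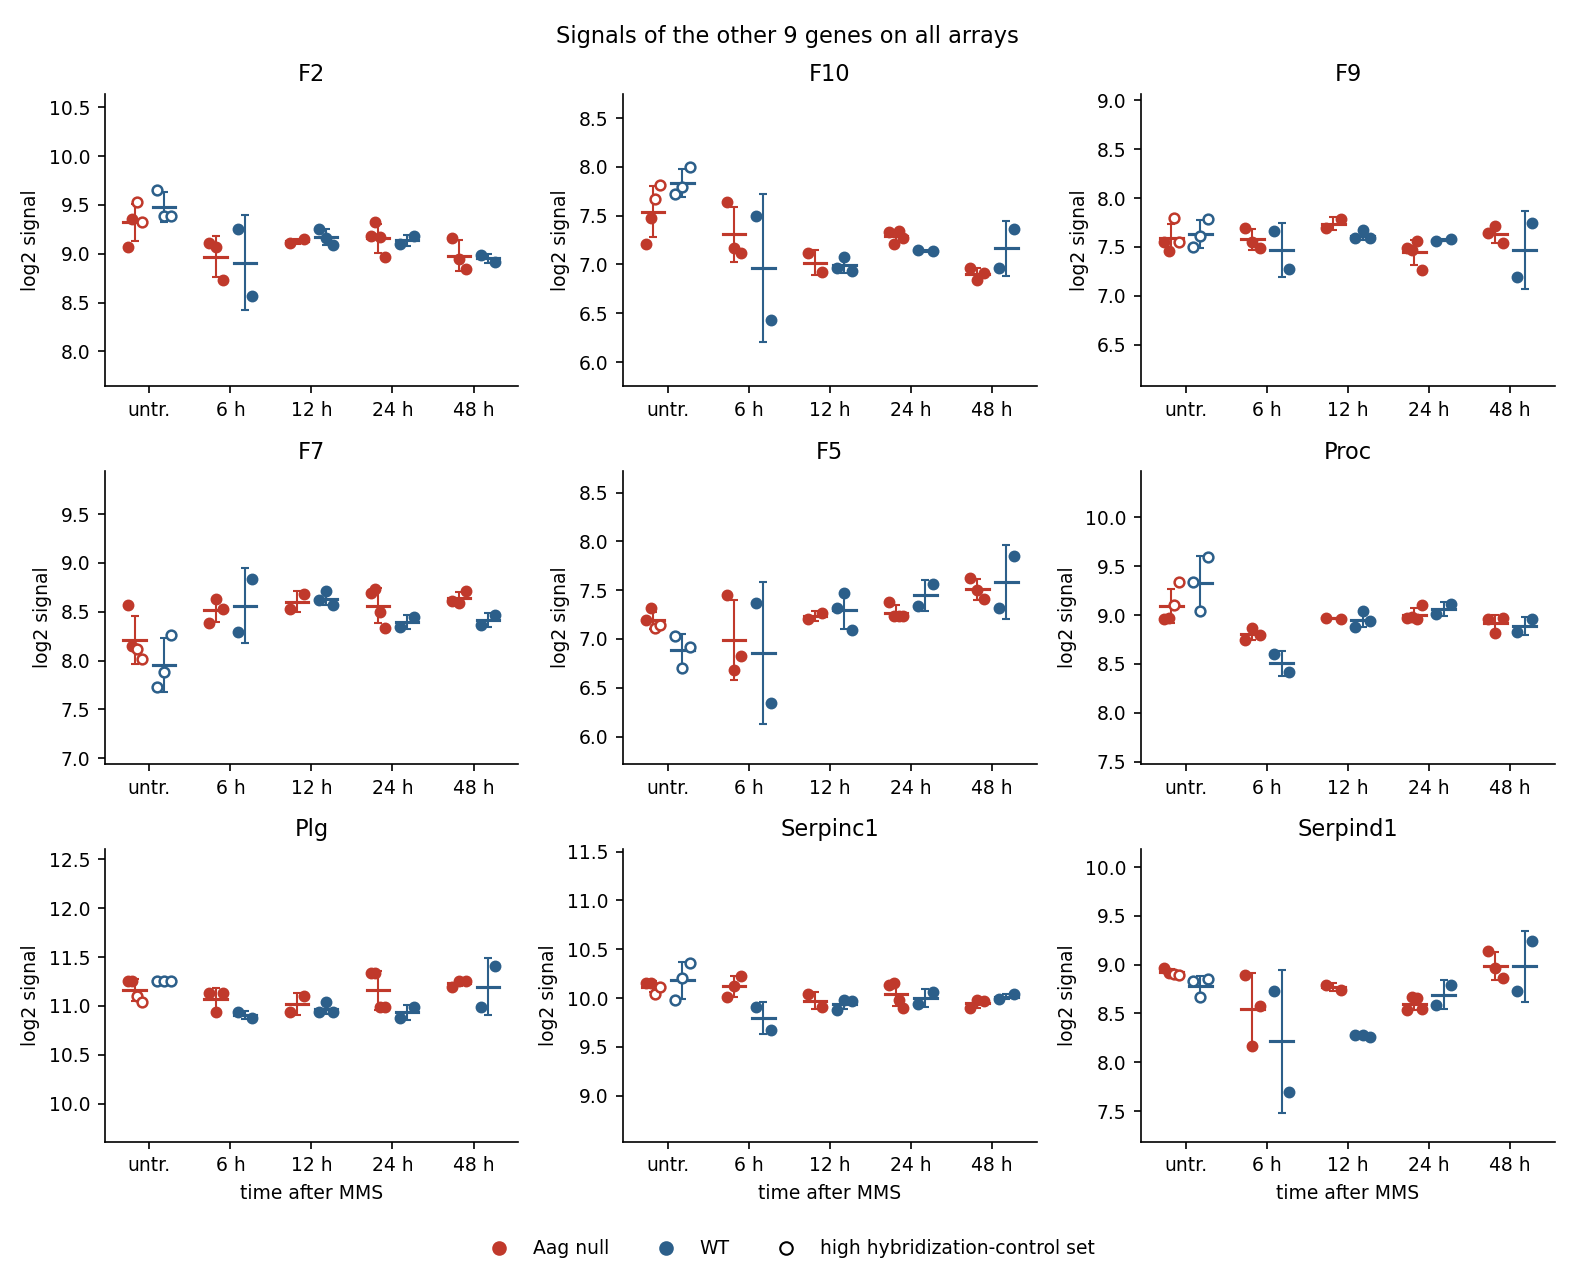
log2 signals (vertical axes) of the other 9 genes in untreated liver and at each time after MMS (horizontal axes), with Aag in red left of WT in blue, means with SD as bars and open points for arrays with high hybridization controls. The WT arrays at 6 h lie far apart for Serpind1 (8.73 and 7.70), F5 and F10, and the Serpind1 arrays at 12 h do not overlap between the genotypes.

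Genes of the wider pathway, from lists chosen with earlier results of these data known, moved in WT liver in both directions. Counts are of tested genes, against the background shares given above, and the array-set limit applies to them too. Of 5 genes for the vitamin K cycle and secretion of clotting factors, 1 rose and 0 fell at 6 h and at 12 h, with 0 called later. This was Lman1, a cargo receptor for factors V and VIII in the secretory pathway, with 1.02 (limma adjusted p = 0.0201) at 6 h and 0.88 (limma adjusted p = 0.0203) at 12 h. Its Aag differences were 0.63 (limma adjusted p = 0.242) and 0.49 (limma adjusted p = 0.53), and Aag minus WT was 0.00 at both times. Of 4 contact system genes, 1 fell at 6 h, F12 (-0.54, limma adjusted p = 0.0389), and 1 rose at 48 h, the prekallikrein gene Klkb1 (0.84, limma adjusted p = 0.0104).

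Of 9 cofactors, receptors and other clotting genes in WT liver, 2 fell at 6 h, and 1 rose and 3 fell at 12 h. Those named are Apoh (-0.64 at 6 h, limma adjusted p = 0.0179), F13b, the carrier subunit of factor XIII (-0.86 at 6 h, limma adjusted p = 0.0355), Pros1, the cofactor of activated protein C (-0.61 at 12 h, limma adjusted p = 0.0445), and Gas6 (0.56 at 12 h, limma adjusted p = 0.0234). Of 4 fibrinolysis genes in WT liver, 2, 1, 2 and 1 fell in order of time. S100a10, which binds plasminogen with annexin A2, was called at all of these times, with -0.63, -0.89, -0.97 and -0.93, and also in Aag liver at 48 h (-0.68, limma adjusted p = 0.0208). Anxa2 itself fell in WT liver by 0.42 at 6 h (limma adjusted p = 0.0395), and Serpinf2, the gene of the plasmin inhibitor, by 0.60 at 24 h (limma adjusted p = 0.0492). Of the 3 fibrinogen genes, Fgg and Fgb fell in WT liver at 24 h (-0.96, limma adjusted p = 0.00555, and -0.82, limma adjusted p = 0.0466). Fgg also fell in Aag liver at 12 h (-0.92, limma adjusted p = 0.0475) and 24 h (-0.91, limma adjusted p = 0.0107). The fibrinogen median of Aag minus WT was -0.72 at 6 h and -0.90 at 12 h, beside 0.00 and -0.01 over all genes. For this comparison limma called 0 of the 3 at either time (2 and 3 at unadjusted p under 0.05). Of all genes tested, 268 and 70 had an unadjusted p under 0.05 there.

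Of 15 other liver serpins and protease inhibitors in WT liver, 2 rose and 4 fell at 6 h, 3 rose and 4 fell at 12 h, 3 fell at 24 h, and 2 rose and 3 fell at 48 h. Serpina3n and Itih4 were among the rises at 6 h, with 2.09 and 1.32. The falls at 6 h included Mug2, of the murinoglobulin protease inhibitors, with -1.10 (limma adjusted p = 0.000167), and Serpinf1, a serpin that does not inhibit proteases, with -0.81 (limma adjusted p = 0.000219). Between the genotypes, 1 of the 15 was called at 6 h, Itih4, and 0 at 12 h. Of 11 liver complement genes in WT liver, 0 rose and 3, 2, 1 and 3 fell in order of time, with Mbl1, a mannose-binding lectin, called at each (-0.81, -0.73, -1.04 and -0.71). C8g, of the terminal complement complex, fell by 0.62 at 6 h (limma adjusted p = 0.00176), and Masp2, a protease of the lectin pathway, by 0.67 (limma adjusted p = 0.016).

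Of 11 hepatocyte transcription factor genes in WT liver, 1, 1, 2 and 2 rose in order of time, and 0 fell. Hnf4a, a nuclear receptor that drives clotting factor genes, rose by 1.31 at 6 h (limma adjusted p = 0.00366), and by 1.00, 0.85 and 1.16 at the later times. Its Aag differences were 0.53, 0.51, 0.48 and 0.83, none called, with limma adjusted p between 0.0867 and 0.497. Whether Hnf4a bears on the differences of the 10 genes was not tested. The other factors named are Cebpa (0.58 at 24 h, limma adjusted p = 0.038) and Ppara (0.68 at 48 h, limma adjusted p = 0.023). The genes most like the mean of the 10 over the 28 arrays were Hrg, Cp, Apof, Cd1d1 and Rpn2, with Pearson correlations of 0.82, 0.80, 0.79, 0.78 and 0.76, given as descriptions.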

How the data were processed

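The deposited values are 1 log2 signal per probe set and array, made by the authors before deposit. The log2 scale was taken from the values, which ran from 0.689 to 13.16, since the labels do not state it. How images were read and probes summarised is not given in the sources. After 66 control probe sets were left out, arrays were quantile normalized, since array medians spanned 0.215, over the limit of 0.1. The brightest probe set stood for a gene, and 5487 genes above the array median on at least 2 arrays were tested. limma 3.58.1 in R 4.3.3 was fitted to all 28 arrays with a mean for each group, which left 18 residual degrees of freedom, with a trend of variance on mean, and p-values were adjusted by Benjamini-Hochberg in each of 19 comparisons. Figures were drawn with matplotlib 3.10.9.

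Replicate numbers were taken from the sample titles. For the Aag arrays at 12 and 48 h the descriptions give replicate 1 to each array, so the replicate block and the names of the arrays left out rest on the titles there.

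The genes, the lists and the array-set and female-typical alternatives were chosen with earlier results of these data known. The 10 genes were named in every comparison, and up to 4 called genes with the smallest adjusted p of each other list, and the 5 genes most like their mean. Alternatives were the values as deposited, no trend, median centring, every probe set, the mean of probe sets, no brightness filter, replicate number as a block, array weights, only the groups compared, the array set as a term, Aag untreated arrays of the low set only, no female-typical arrays, and each array left out. Chosen after seeing the data were leaving out both 6 h replicate 1 arrays, and the high-set Aag untreated arrays only against WT.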

Additional observations from a re-analysis of the deposited data

Results flagged for a closer look

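The response of Serpina10 to MMS differed between the genotypes by the test of the interaction itself, with an Aag response minus WT response of -1.36 at 6 h (limma adjusted p = 0.000908) and -1.14 at 12 h (limma adjusted p = 0.0135). The 6 h call was lost with median centring, array weights or only the arrays compared (limma adjusted p = 0.0945, 1 and 0.167), and the 12 h call as deposited, median centred or without the female-typical arrays (limma adjusted p = 0.176, 0.251 and 0.0511), and without any of 3 single arrays of 12 h. All 5 WT arrays at 6 and 12 h lay above all others, and the Aag arrays of these times lay in the range of the untreated arrays, except Aag 6 h replicate 2 at 7.93.

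F5 in Aag 24 h replicate 1, at 7.38, stood apart from the other 3 arrays of its group, at 7.23 each, by the size of its gap to them. This was 1 flag in 20 groups tested, and chance alone flags about 1 in 20.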

How the results depend on the processing

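Among 3540 values of the 10 genes under the alternatives, 3384 stayed on their side of the threshold, 119 lost a call, 37 gained one and 0 called values changed sign, while 203 uncalled values did. Of the 20 calls summed over 19 comparisons, which share arrays, 9 were kept as deposited, 8 with median centring, 8 with array weights, whose fit did not converge, 6 with only the groups compared and 20 without the filter or the trend. When the array set was a term, 6 of 19 were kept. The causes were not tested.

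The count called of the 10 genes was moved as follows. As deposited it was 1 for WT at 48 h and 0 for Aag minus WT at 6 h and 12 h and the interaction at 12 h. With median centring it was 3 for WT at 6 h and 0 for WT at 24 h and 48 h, Aag minus WT at 6 h and 12 h and both interactions at these times. With array weights it was 0 for WT at 6 h, Aag minus WT at 6 h, the interaction at 6 h and WT 48 h minus 6 h, 1 for WT at 48 h and 2 for the Aag response at 12 h, Aag minus WT at 12 h and Aag 48 h minus 6 h, and 3 for Aag at 48 h. With only the groups compared it was 0 for WT at 6 h and 48 h, Aag minus WT at 6 h, the interaction at 6 h and WT 48 h minus 6 h. When the array set was a term it was 1 for WT at 6 h and 12 h and 0 at 24 h and 48 h. Without the female-typical arrays it was 0 for WT at 24 h and 48 h and for the interaction at 12 h. Without both 6 h replicate 1 arrays it was 1 for Aag at 6 h and Aag 48 h minus 6 h, 2 for the interaction at 6 h and 4 for WT 48 h minus 6 h.

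Without single arrays the count ran over 2 to 7 for WT at 6 h, 3 to 4 at 12 h, 0 to 1 at 24 h and 0 to 2 at 48 h, 0 to 2 for Aag at 48 h, 1 to 4 for Aag minus WT at 6 h, 0 to 1 at 12 h, 1 to 2 for the interaction at 6 h, 0 to 1 at 12 h, and 1 to 4 for WT 48 h minus 6 h. The other comparisons stayed at 0.

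With the replicate number as a block the count was 0 for WT at 24 h and 1 at 48 h, and 16 of the 20 calls were kept. The numbers were not taken as pairing the arrays. In deviations from group means, 36 of 106 same-numbered pairs correlated above 0.1. This count cannot settle the pairing, since it was not set against pairs of unlike number. Between groups of 2 arrays both pairs also give the same value. At 6 h the Aag and WT arrays of the same number did deviate together (0.92 and 0.78), and with the block Serpina10 stayed called there (Aag minus WT -1.09, limma adjusted p = 0.00139).

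As deposited, the median of all genes in the WT responses moved to between 0.11 and 0.15. Higher and lower calls over all genes were then 688 and 300 at 6 h (main 387 and 506), 954 and 347 at 12 h (598 and 557), 702 and 236 at 24 h (364 and 395), and 548 and 271 at 48 h (347 and 445). Total calls over all genes ranged, apart from single arrays left out, over 0 to 1645 for WT at 6 h (main 893), 166 to 1639 at 12 h (1155), 192 to 1116 at 24 h (759) and 194 to 1206 at 48 h (792), the lowest at 12, 24 and 48 h being those fitted with an array set term. They ranged over 0 to 100 calls for Aag at 6 h (main 28), 3 to 555 at 12 h (24), 1 to 370 at 24 h (59) and 0 to 962 at 48 h (50), 0 to 97 for Aag minus WT at 6 h (10) and 0 to 53 at 12 h (1), and 0 to 38 for the interaction at 6 h (13) and 0 to 28 at 12 h (9).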
